A study of Mus musculus with 2 samples.

Results

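The messages described here are the protein-coding transcripts of the mouse mitochondrial genome, read by RNA sequencing in a calf muscle, the gastrocnemius. They were chosen as the genes located on chromosome MT, all of which have names that start with mt-. There were 13 of them among 34745 genes in all. The annotation of that chromosome (GENCODE M21, build GRCm38) lists 37 genes: 13 protein genes, 2 rRNA genes and 22 tRNA genes. The 2 rRNAs and 22 tRNAs are not analysed here, so that every statement on the mitochondrial messages concerns the 13 protein-coding ones. Shares of library counts and ranks are over the 34745 genes used here, with these rRNAs and tRNAs not among them.

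The study set muscle of TECRLscko mice, where Pax7-Cre removes Tecrl from satellite cells (muscle stem cells), against that of TECRLflox/flox mice. Both groups carry the floxed Tecrl allele. The labels name no Cre in the TECRLflox/flox mice, and they state neither age nor injury nor how many mice a library holds. There was 1 library per group, with 16946124 counts in the TECRLscko library and 19281017 counts in the TECRLflox/flox library. With 1 library per group no test across mice was possible and no p-value is given. Intervals below are 95% intervals for counting error only and do not cover differences between mice. They treat reads as independent and can be too narrow, because several reads can stem from one molecule. Each difference is one between 2 libraries. Tecrl itself had 4 counts in the TECRLscko library and 3 counts in the TECRLflox/flox library, too few to check the deletion in whole muscle. Markers of fast muscle fibers made up a summed 97656 CPM (counts scaled to library size) in the TECRLscko library and 108471 CPM in the TECRLflox/flox library, and Myh4 alone had 28026 CPM in the TECRLscko library and 28231 CPM in the TECRLflox/flox library.

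The mitochondrial genome is a small circular DNA that is present in many copies per cell. It is transcribed from both strands into long precursors, from which the messages are released, mostly by cutting out the tRNAs that lie between them. Its messages encode membrane subunits of the respiratory chain and of ATP synthase: mt-Nd1 to mt-Nd6 and mt-Nd4l belong to complex I (NADH dehydrogenase), mt-Cytb to complex III (cytochrome bc1 complex), mt-Co1, mt-Co2 and mt-Co3 to complex IV (cytochrome c oxidase), and mt-Atp6 and mt-Atp8 to complex V (ATP synthase). The other subunits of these complexes come from nuclear genes. In whole muscle more mitochondria, more genomes per mitochondrion and more or longer-lived message per genome cannot be told apart, nor can a different number of cells or fibers of a type and a different amount of RNA per cell.

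How the genes are packed decides which counts can be kept apart, so the stretches where members share more than 1 base or end without a full stop codon are shown here, 5′ to 3′ on the strand of the message and read from the GENCODE M21 transcripts. Of the 13 genes, 12 lie on one strand and mt-Nd6 alone on the other. In the first line the capitals mark the start codon of mt-Atp6 and the stop codon of mt-Atp8, 43 shared bases (MT:7918-7969 is shown). In the second they mark the start codon of mt-Nd4 and the stop codon of mt-Nd4l, which share 7 bases (MT:10144-10173). mt-Atp6 and mt-Co3 share 1 base, at position 8607, which is not shown.
mt-Atp8 end: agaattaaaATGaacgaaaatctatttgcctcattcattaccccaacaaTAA
mt-Nd4l end: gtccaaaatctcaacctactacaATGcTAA

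The 3′ ends of mt-Nd5 (MT:13536-13565) and mt-Nd6 (MT:13552-13581, opposite strand) face each other and share 14 bases, in capitals. Whether reads were counted by strand is not given in the sources used here, so reads of the 2 strands cannot be told apart here. The same holds over the whole of mt-Nd6 (MT:13552-14070), where reads from the other strand would be counted on mt-Nd6 if strand was not used.
mt-Nd5 end: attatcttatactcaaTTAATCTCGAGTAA
mt-Nd6 end: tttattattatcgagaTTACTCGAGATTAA

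Of the 13 messages 3 end on an incomplete stop codon, a lone T in capitals, which the poly(A) tail added after processing completes. They are mt-Co3 (MT:9361-9390), mt-Nd4 (MT:11515-11544) and mt-Cytb (MT:15259-15288).
mt-Co3 end: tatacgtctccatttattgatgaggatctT
mt-Nd4 end: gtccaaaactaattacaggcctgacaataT
mt-Cytb end: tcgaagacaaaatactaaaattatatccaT

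Together the 13 messages took 3909125 counts, or 23.1% of the TECRLscko library (Wilson interval 23.05 to 23.09), against 3279510 counts, or 17.01% of the TECRLflox/flox library (16.99 to 17.03). Without mt-Co1, the most abundant, the other 12 took 15.7% of the remaining counts in the TECRLscko library and 10.5% in the TECRLflox/flox library. Mitochondrial messages were among the most abundant of all genes by count. In the TECRLscko library 6 of the top 10 and 9 of the top 20 genes were mitochondrial, against 4 of the top 10 and 7 of the top 20 in the TECRLflox/flox library. mt-Co1 ranked first in both.

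All 13 messages were higher in the TECRLscko library. At 1.5-fold, 10 of the 13 passed in the higher direction and none in the lower direction. Over all genes compared, the 12559 whose mean over both libraries reached 1 CPM, 9.24% passed 1.5-fold higher and 3.88% passed 1.5-fold lower. Of the 65 genes that averaged 1000 CPM or more outside the mitochondrial genome and its nuclear copies, 9.23% were 1.5-fold higher. The median log2 ratio of TECRLscko over TECRLflox/flox was 0.70 for the 13 messages, with a range from 0.24 to 1.09, and -0.02 for all genes compared. All 13 counting intervals lay above a ratio of 1, but high counts make such intervals narrow. Myh4, nearly equal in both libraries (0.993), also had bounds that left out 1 (0.989 to 0.997). The share of all genes whose bounds leave out 1 was not computed. At 2-fold, 2 of the 13 genes passed, mt-Nd4l and mt-Nd6, beside 2.28% of all genes compared. Summed with mt-Nd4, with which it shares a message, mt-Nd4l came to a ratio of 1.76.

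**Figure D1:**
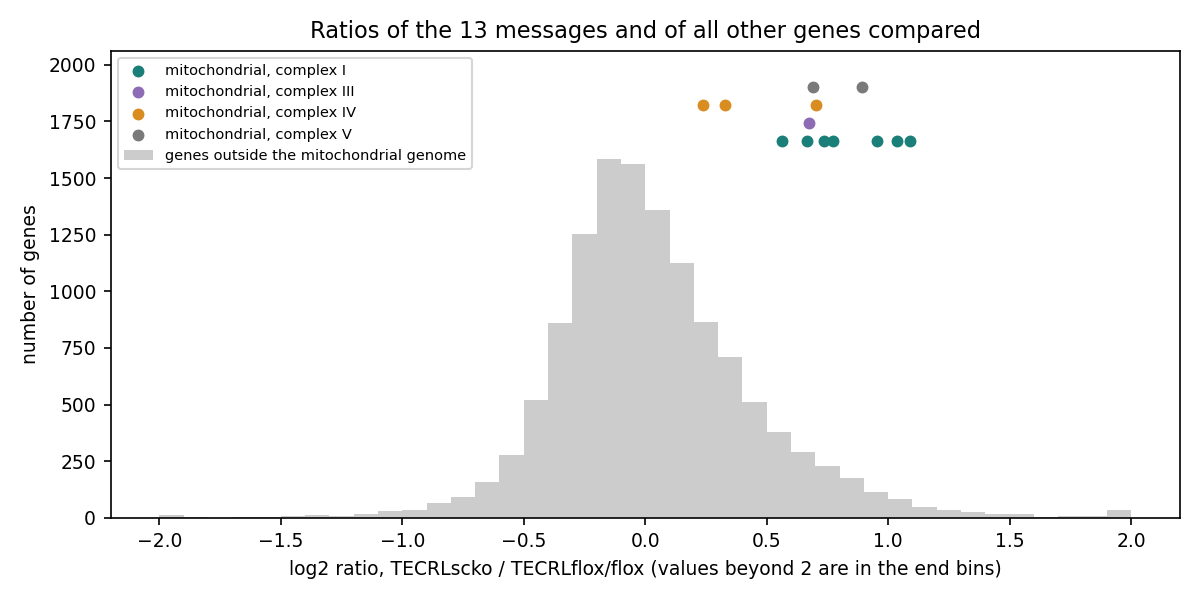
Histogram of log2 ratios (TECRLscko over TECRLflox/flox, x axis) of all genes averaging 1 CPM or more outside the mitochondrial genome (grey bars, number of genes on the y axis), with the 13 mitochondrial messages as points above, 1 row of points per complex. The points lie between 0.24 and 1.09, to the right of the median of all genes at -0.02.

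The levels per length differed widely among the messages, although those of one strand come from shared precursors. The deposited FPKM, which divides the count by gene length and by library total, is used for levels between genes. mt-Co1, which carries the catalytic site of cytochrome c oxidase, was the highest at 56731 FPKM in the TECRLscko library and 47406 FPKM in the TECRLflox/flox library. mt-Co3, a structural core subunit of the same complex, followed at 33726 FPKM in the TECRLscko library and 29971 FPKM in the TECRLflox/flox library. mt-Atp8, mt-Co2, mt-Nd1 and mt-Cytb came next in both libraries, all between 20062 and 32204 FPKM in the TECRLscko library and between 12983 and 18156 FPKM in the TECRLflox/flox library. mt-Nd5, at 6052 FPKM in the TECRLscko library and 3276 FPKM in the TECRLflox/flox library, and mt-Atp6, at 4722 FPKM in the TECRLscko library and 3066 FPKM in the TECRLflox/flox library, were the lowest of the 12 genes on the common strand. The place of mt-Atp6 rests on how reads were placed between it and a near-identical nuclear copy described further on: with the counts of the copy added it came to 8811 FPKM in the TECRLscko library and 6214 FPKM in the TECRLflox/flox library, above mt-Nd5 and also above mt-Nd3, at 8779 FPKM in the TECRLscko library and 5873 FPKM in the TECRLflox/flox library.

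mt-Nd6, the only member on the other strand, stood far below the rest, at 239 FPKM in the TECRLscko library and 117 FPKM in the TECRLflox/flox library, with the limit on strand given above. The level of mt-Co1 was 237 times that of mt-Nd6 in the TECRLscko library and 404 times in the TECRLflox/flox library. Whether the making of the libraries recovers mt-Nd6 as fully as the other messages was not tested. By level the order of the 13 was the same in both libraries except for 4 genes, which swapped places in pairs. mt-Nd1 stood above mt-Cytb in the TECRLscko library and below it in the TECRLflox/flox library, and likewise mt-Nd4l and mt-Nd4. With the counts of nuclear copies added, 7 genes changed rank between the libraries.

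**Figure D2:**
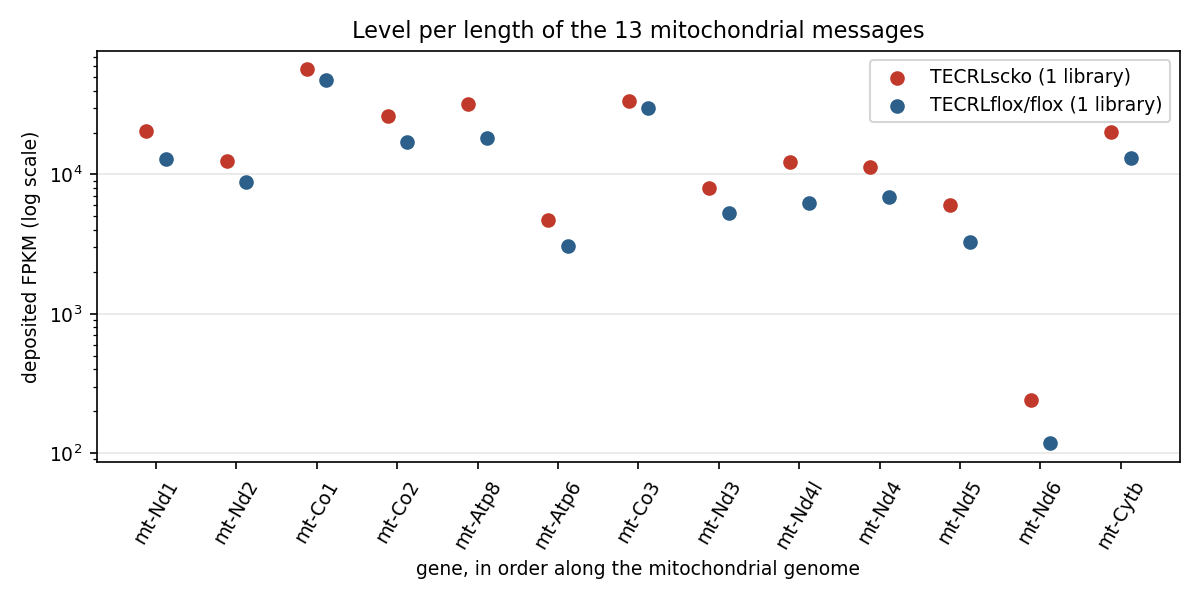
Deposited FPKM (log scale, y axis) of the 13 messages in order along the mitochondrial genome (x axis), with 1 point per library. In every gene the TECRLscko point lies above the TECRLflox/flox point, and mt-Nd6, at 239 FPKM in the TECRLscko library and 117 FPKM in the TECRLflox/flox library, lies far below the others.

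The 3 greatest ratios were those of complex I messages. mt-Nd6 (ENSMUSG00000064368, MT:13552-14070) had 2104 counts in the TECRLscko library and 1173 counts in the TECRLflox/flox library, a ratio of CPM of 2.14 (exact interval 1.99 to 2.299), in which reads of the opposite strand may be included. mt-Nd4l (ENSMUSG00000065947, MT:9877-10173) had 61479 counts in the TECRLscko library and 35709 in the TECRLflox/flox library, a ratio of 2.05 (2.03 to 2.08). mt-Nd5 (ENSMUSG00000064367, MT:11742-13565) had 187055 counts in the TECRLscko library and 115210 in the TECRLflox/flox library, a ratio of 1.94 (1.92 to 1.95). The remaining complex I messages were less apart between the libraries, and mt-Nd2 was just under 1.5-fold.

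mt-Nd4 (ENSMUSG00000064363, MT:10167-11544) had 263113 counts in the TECRLscko library and 183828 in the TECRLflox/flox library, a ratio of 1.71 (1.70 to 1.72). mt-Nd1 (ENSMUSG00000064341, MT:2751-3707) had 334861 counts in the TECRLscko library and 239556 in the TECRLflox/flox library, a ratio of 1.67 (1.66 to 1.68). mt-Nd3 (ENSMUSG00000064360, MT:9459-9806) had 46984 counts in the TECRLscko library and 35325 in the TECRLflox/flox library, a ratio of 1.59 (1.56 to 1.61). Their products, with those of mt-Nd2, mt-Nd4l, mt-Nd5 and mt-Nd6, form the core of the proton-pumping membrane arm of complex I. mt-Nd2 (ENSMUSG00000064345, MT:3914-4951) had 219163 counts in the TECRLscko library and 176742 in the TECRLflox/flox library, a ratio of 1.48 (1.47 to 1.49).

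The smallest ratios were those of the complex IV messages mt-Co3 and mt-Co1, while the third message of that complex, mt-Co2, stood higher. mt-Co3 (ENSMUSG00000064358, MT:8607-9390) had 448070 counts in the TECRLscko library and 453051 in the TECRLflox/flox library, fewer before scaling, and a ratio of CPM of 1.18 (1.174 to 1.184). mt-Co1 (ENSMUSG00000064351, MT:5328-6872) had 1485325 counts in the TECRLscko library and 1412193 in the TECRLflox/flox library, a ratio of 1.25 (1.25 to 1.26). mt-Co2 (ENSMUSG00000064354, MT:7013-7696), the subunit that takes electrons from cytochrome c, had 306212 counts in the TECRLscko library and 224101 in the TECRLflox/flox library, a ratio of 1.63 (1.62 to 1.64). The 3 ratios of complex IV thus reached into the range of complex I, which ran from 1.48 to 2.14, and the complexes were not separated gene by gene.

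mt-Cytb (ENSMUSG00000064370, MT:14145-15288), the only mitochondrial message of complex III, had 388935 counts in the TECRLscko library and 290946 in the TECRLflox/flox library, a ratio of 1.59 (1.59 to 1.60). Both complex V messages passed 1.5-fold, but mt-Atp6 came to 1.49 with nuclear copies added, and neither passed once the trends with length and base composition described next were removed, with log2 ratios of 0.37 for mt-Atp8 and 0.39 for mt-Atp6. mt-Atp8 (ENSMUSG00000064356, MT:7766-7969), a small subunit of the membrane part of ATP synthase, had 111329 counts in the TECRLscko library and 71412 in the TECRLflox/flox library, a ratio of 1.86 (1.84 to 1.88). mt-Atp6 (ENSMUSG00000064357, MT:7927-8607), which forms part of its proton path, had 54495 counts in the TECRLscko library and 40264 in the TECRLflox/flox library, a ratio of 1.61 (1.59 to 1.63).

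Over the whole table the log2 ratio went with transcript length (Spearman correlation 0.40 across genes, which are not independent replicates) and against GC content (-0.43). The mitochondrial messages are low in GC, from 31.9% in mt-Atp8 to 41.1% in mt-Nd4l. Even the highest of these exceeded the GC content of only 8.81% of the 12524 genes used for the trend. After a lowess correction for both trends all 13 messages still had a positive log2 ratio, the median being 0.48, the lowest 0.06 (mt-Co3) and the highest 0.89 (mt-Nd4l). Of the 13 only mt-Nd4l, mt-Nd5 and mt-Nd6 then passed 1.5-fold, beside 4.61% of all genes with a corrected value. The corrected value was 0.70 for mt-Nd5 and 0.70 for mt-Nd6. Among the members themselves the log2 ratio had a Spearman correlation of -0.29 with length and -0.24 with GC content over the 13 genes, which share both libraries.

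**Figure D3:**
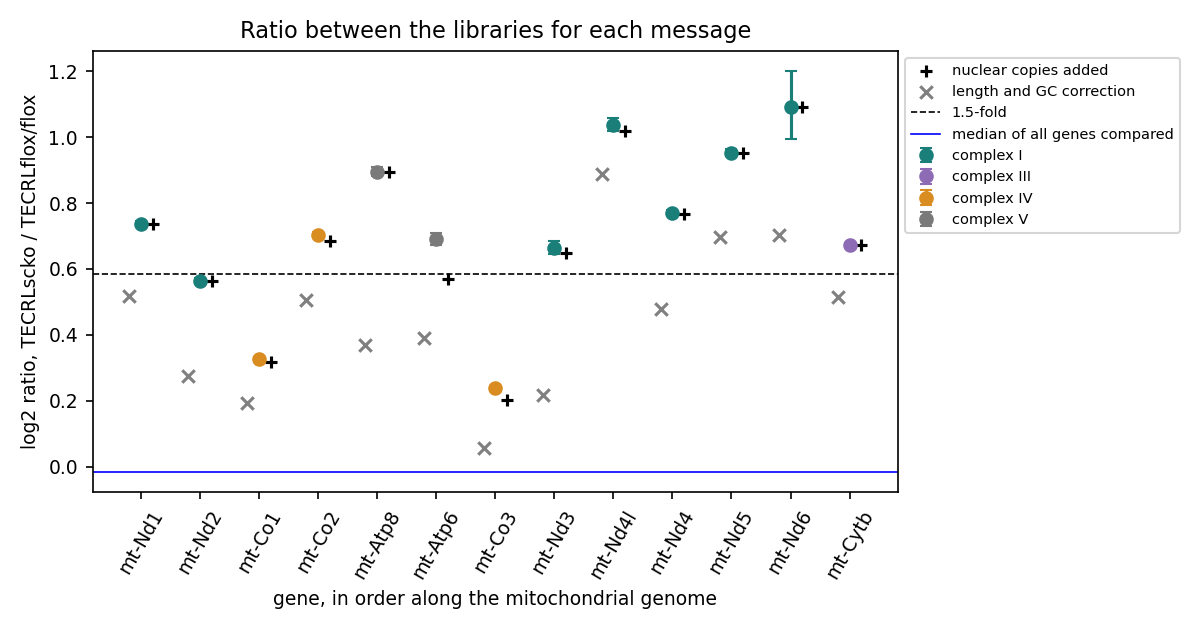
Log2 ratio of TECRLscko over TECRLflox/flox (y axis) for each message in genome order (x axis). Filled points carry 95% counting intervals and are colored by complex, plus signs are values with nuclear copies added, crosses are values after the length and GC correction, and lines mark 1.5-fold and the median of all genes. mt-Co3 (0.24) and mt-Co1 (0.33) are the lowest points, mt-Nd6 (1.09) and mt-Nd4l (1.04) the highest.

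The makeup of the mitochondrial messages also differed between the libraries, a comparison within each library that does not depend on its scaling. mt-Co1 took 38.00% of the counts of the 13 messages in the TECRLscko library (Wilson interval 37.95 to 38.04) and 43.1% in the TECRLflox/flox library. mt-Co3 took 11.5% in the TECRLscko library and 13.8% in the TECRLflox/flox library. The other 11 messages had a larger share in the TECRLscko library. Shares were not computed after the length and GC correction. With that correction the log2 ratios of mt-Nd2 (0.28) and mt-Nd3 (0.22) came nearer to that of mt-Co1 (0.19). Which of the 11 would then keep a larger share was not tested. Shares sum to the whole, so that a smaller share of the most abundant member enlarges the others. The share ratio ran from 0.83 for mt-Co3 and 0.88 for mt-Co1 to 1.44 for mt-Nd4l and 1.505 for mt-Nd6.

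By complex, the 7 complex I messages took 28.5% of the mitochondrial message counts in the TECRLscko library (28.5 to 28.6) and 24.01% in the TECRLflox/flox library (23.97 to 24.06). The 3 complex IV messages took 57.3% in the TECRLscko library (57.2 to 57.3) and 63.7% in the TECRLflox/flox library (63.7 to 63.8). Complex III took 9.95% in the TECRLscko library and 8.87% in the TECRLflox/flox library. Complex V took 4.24% in the TECRLscko library and 3.41% in the TECRLflox/flox library. Without mt-Co1 complex IV took 31.1% in the TECRLscko library and 36.3% in the TECRLflox/flox library. By strand, with reads of the other strand perhaps included, mt-Nd6 was 0.0538% of the counts in the TECRLscko library (0.0516 to 0.0562) and 0.0358% in the TECRLflox/flox library (0.0338 to 0.0379).

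**Figure D4:**
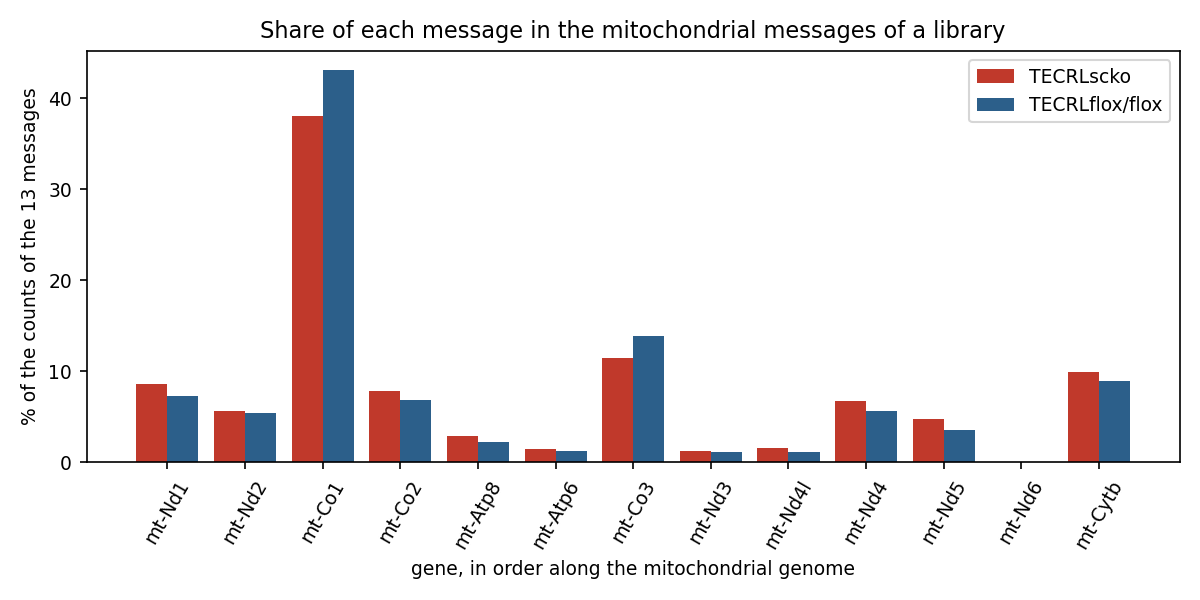
Share of each message in the counts of the 13 mitochondrial messages (y axis, percent), by gene in genome order (x axis), with 1 bar per library. mt-Co1 (38.00% in TECRLscko, 43.1% in TECRLflox/flox) and mt-Co3 (11.5% in TECRLscko, 13.8% in TECRLflox/flox) are the only messages whose TECRLscko bar is the shorter of the pair.

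The ratio did not follow a strict order along the genome. With the middle of each gene as its position, the Spearman correlation with the log2 ratio was 0.42 over the 13 genes and 0.31 over the 12 genes of the common strand. Less abundant messages tended to have the greater ratio, with a Spearman correlation of -0.54 between the log2 ratio and the mean log2 FPKM over 13 genes and -0.41 without mt-Nd6. The points of these correlations share both libraries.

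Neighbors in one message did not have equal FPKM, a value that depends on how reads were placed between overlapping genes and nuclear copies. mt-Nd4l and mt-Nd4, which overlap in one mature message, were close: mt-Nd4l had 1.08 times the FPKM of mt-Nd4 in the TECRLscko library and 0.90 times in the TECRLflox/flox library. mt-Atp8 and mt-Atp6 also overlap in one message, yet mt-Atp8 had 6.82 times the FPKM of mt-Atp6 in the TECRLscko library and 5.92 times in the TECRLflox/flox library. With the counts of the nuclear copy of mt-Atp6 added, described below, this came to 3.66 times in the TECRLscko library and 2.92 times in the TECRLflox/flox library. Summed, the mt-Atp8 and mt-Atp6 pair had a ratio between libraries of 1.77 (1.76 to 1.78), and the mt-Nd4l and mt-Nd4 pair 1.76 (1.75 to 1.77).

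Base composition also sets mt-Nd6 apart. Its message held 28.1% G and 5.97% C, whereas G made up between 5.88% and 16.1% of the other 12 messages, and mt-Nd6 was also the richest in T, at 43.7%. Of the 13 messages 9 start with ATG, and mt-Nd1 (GTG), mt-Nd2 (ATA), mt-Nd3 (ATT) and mt-Nd5 (ATC) do not.

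Part of the mitochondrial sequence has near-identical copies in the nuclear genome, and counts were also placed on these. Such copies, insertions of mitochondrial DNA into chromosomes, are annotated as gene models with names of the Gm type. A search of all annotated transcripts found 11 models with counts that match 9 of the 13 messages at 90% identity or more over at least 100 bases. Of these, 7 lie side by side on chromosome 1 (24611535 to 24616197, GRCm38) and match mt-Co1 to mt-Nd4 in mirrored order, 5 of them with no difference over the matched length. The other 4 are less alike, at 95.2% to 97.6% identity. No matching model was found for mt-Nd1, mt-Atp8, mt-Nd6 and mt-Cytb, and only annotated models were searched. On chromosome 1, Gm28661 matches MT:7013-7693 and Gm10925 matches MT:7927-8604, on either side of most of mt-Atp8. Gm10925 includes the 43 bases that mt-Atp8 shares with mt-Atp6. On chromosome 1 Gm10925 ends at 24614651 and Gm28661 begins at 24614885, a gap as long as that between MT:7693 and MT:7927. The sequence of this gap was not compared, so whether the block also holds the rest of mt-Atp8 was not tested.

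The differences that could separate the chromosome 1 block from the mitochondrial genome come down to a single base in each of Gm29216 and Gm28438 over the matched length. Counted from the first base of the mitochondrial gene, the mitochondrial base first, these are A1066T in mt-Co1 and T3C in mt-Nd3. The stretches around both are shown with that base in capitals; the mitochondrial ones lie at MT:6390-6413 and MT:9459-9481, the nuclear ones at chr1:24616165-24616188 and chr1:24613097-24613119 on the minus strand.
mt-Co1: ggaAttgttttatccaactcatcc
Gm29216: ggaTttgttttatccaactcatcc
mt-Nd3: atTaacctgtacactgttatctt
Gm28438: atCaacctgtacactgttatctt

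The counts on the copies were large. The chromosome 1 models held 220812 counts in the TECRLscko library and 219755 in the TECRLflox/flox library. Per 100 counts of the 13 messages this was 5.65 in the TECRLscko library and 6.70 in the TECRLflox/flox library. Gm10925, which matches 678 of the 681 bases of mt-Atp6 without a difference, had 47183 counts in the TECRLscko library and 41334 in the TECRLflox/flox library. That came to 86.6 counts per 100 on mt-Atp6 in the TECRLscko library and 103 in the TECRLflox/flox library, so that about as many reads were placed on the copy as on the gene. For the other identical models the figure was between 7.87 and 15.4 per 100 in the TECRLscko library and between 8.28 and 16.9 in the TECRLflox/flox library. The lowest figure in both libraries was that of Gm28439, which covers only 63.6% of mt-Nd4.

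Each of the 7 models on chromosome 1 had a smaller ratio between libraries than the gene it matches. The ratio was 1.61 for mt-Atp6 and 1.36 for Gm10925 (1.34 to 1.38). It was 1.18 for mt-Co3 and 0.98 (0.97 to 0.99) for its copy Gm28437, which had 62606 counts in the TECRLscko library and 75964 in the TECRLflox/flox library. It was 1.25 for mt-Co1 and 1.01 (0.996 to 1.02) for Gm29216, which covers 31.3% of that gene. In the same way mt-Co2 (1.63), mt-Nd3 (1.59), mt-Nd4l (2.05) and mt-Nd4 (1.71) stood above Gm28661 (1.45), Gm28438 (1.40), Gm10222 (1.87) and Gm28439 (1.62). Of these copies Gm28439 covers only 63.6% of its gene. The 4 models elsewhere held 13015 counts in the TECRLscko library and 11139 in the TECRLflox/flox library, nearly all on Gm13340, a copy of mt-Co1 on chromosome 2 with 37 mismatches, whose ratio of 1.37 (1.33 to 1.41) lay above that of mt-Co1. How reads that fit both places were shared out is not given in the sources used here, and reads of the gene and of an identical copy cannot be told apart.

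**Figure D5:**
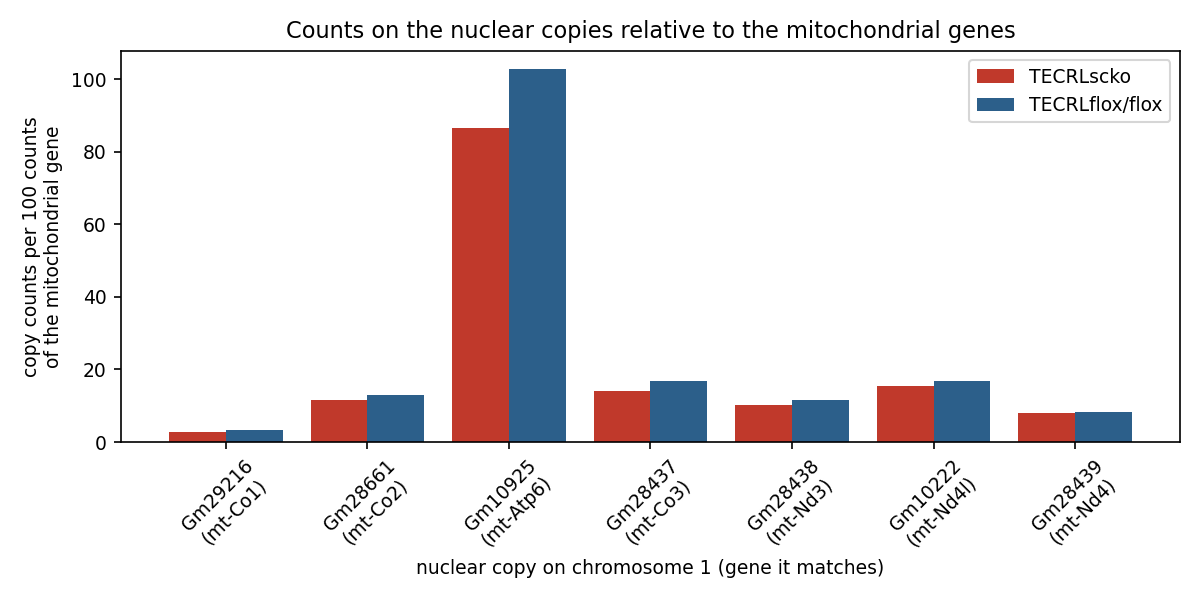
Counts on each nuclear copy on chromosome 1 per 100 counts on the mitochondrial gene it matches (y axis), by copy (x axis, matched gene in brackets), with 1 bar per library. Gm10925 stands at 86.6 in the TECRLscko library and 103 in the TECRLflox/flox library, and in all 7 copies the TECRLscko bar is the shorter.

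Adding the counts of the copies to their genes brought mt-Atp6 to a ratio of 1.49, just under 1.5-fold, so that 9 of 13 passed in place of 10, beside 9.24% of all genes compared. The other members moved little: mt-Co3 came to 1.15 and mt-Co1 to 1.25. The level of mt-Atp8, to which no counts were added, was then 3.66 times that of mt-Atp6 in the TECRLscko library and 2.92 times in the TECRLflox/flox library. These values were nearer than before but still unequal. The 4 messages without a matching model, to which no counts were added, had a median log2 ratio of 0.82. The 9 with such a model had 0.69 before any counts were added.

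Nuclear genes that act on the mitochondrial genome and its messages differed by less than 1.5-fold between the libraries, as did most genes: of all genes compared 9.24% passed in the higher direction and 3.88% in the lower. None of 16 compared genes for its transcription and replication passed 1.5-fold in either direction, with a median log2 ratio of -0.15. The mitochondrial RNA polymerase Polrmt had the lowest value, -0.28 (381 counts in the TECRLscko library, 555 in the TECRLflox/flox library), and the transcription factor Tfb2m the highest, 0.33 (422 counts in the TECRLscko library, 398 in the TECRLflox/flox library). None of 21 genes for processing, stability and decay of mitochondrial RNA passed either, with a median of -0.01. Pnpt1, the RNA-degrading polynucleotide phosphorylase, stood highest at 0.32 and the oligonuclease Rexo2 lowest at -0.35. Of 15 compared genes that modify mitochondrial tRNA or rRNA, none passed, and the median was -0.20, with Nsun3 at 0.33 and Mrm1 at -0.45.

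Nuclear partners in the same complexes differed little between the libraries. Of 71 nuclear subunit genes of complexes I, III, IV and V, 58 had a negative log2 ratio and 13 a positive one, none at 1.5-fold in either direction, with a median of -0.17. Over all genes compared 51.8% had a negative value, 3.88% were 1.5-fold lower and 9.24% were 1.5-fold higher. After the length and GC correction the median of the 71 came to 0.01, and 1 gene, Ndufb2, passed 1.5-fold lower. The share of all genes 1.5-fold lower after the correction was not computed, and the 3.88% is for uncorrected values. For complex I the median was 0.77 over the 7 mitochondrial messages and -0.19 over 36 nuclear genes. For complex III it was 0.67 for mt-Cytb and -0.09 over 9 nuclear genes. For complex IV it was 0.33 over 3 mitochondrial messages and -0.16 over 11 nuclear genes, and for complex V 0.79 over 2 messages and -0.17 over 15 nuclear genes. After the correction the medians were 0.52 for the mitochondrial messages and -0.0016 for the nuclear genes of complex I, and 0.52 for mt-Cytb and 0.02 for the nuclear genes of complex III. For complex IV they were 0.19 for the mitochondrial messages and 0.02 for the nuclear genes, and for complex V 0.38 for the messages and -0.02 for the nuclear genes. Before the correction Ndufb3 (0.20), Uqcrb (0.20), Cox7c (0.40) and Atp5k (0.02) were the highest of the nuclear genes of complexes I, III, IV and V, and Ndufb2 (-0.51), Uqcrq (-0.19), Cox7a2 (-0.38) and Atp5o (-0.46) the lowest.

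Slow fiber markers were also higher in the TECRLscko library, and slow fibers are rich in mitochondria. All 10 of these markers had a positive log2 ratio, 8 of them past 1.5-fold, beside 9.24% of all genes compared, with a median of 0.92 and a summed level of 3406 CPM in the TECRLscko library and 1953 CPM in the TECRLflox/flox library. Of 9 fast fiber markers 8 had a negative value, none past 1.5-fold, with a median of -0.25. Of the other cell types, 6 of 6 tenocyte markers had a positive value, 4 of them past 1.5-fold, and a summed 146 CPM in the TECRLscko library and 108 CPM in the TECRLflox/flox library. All 5 compared adipocyte markers had a negative value, 4 of them past 1.5-fold, beside 3.88% of all genes compared, and a summed 19.03 CPM in the TECRLscko library and 41.6 CPM in the TECRLflox/flox library; Ucp1 of brown fat had 0 counts in both libraries. Of 5 erythroid markers 4 had a positive value, 1 of them past 1.5-fold, with 260 CPM in the TECRLscko library and 232 CPM in the TECRLflox/flox library. Of 3 heart markers, Nppa and Myl7 were at 0 in both libraries and Myh6 had 64 counts in the TECRLscko library and 48 in the TECRLflox/flox library. The part of these markers in the mitochondrial result was not tested.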

How the data were processed

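Each group gave 1 library of gastrocnemius total RNA, made, per the labels' protocols, with the VAHTS Universal V6 kit. Build GRCm38 and the tools StringTie 1.3.0, HISAT2 2.0.4 and CASAVA are named per the submitters' processing notes; the counter, its handling of reads that match several places, its strand setting and its annotation are not given in those sources. The raw count per gene was deposited by the authors without normalization. The FPKM values deposited by the authors equal the count divided by gene length and library total for all 13 messages.

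TMM factors from edgeR 4.0.16 (R 4.3.3) scaled the counts; they were 0.977 for the TECRLscko and 1.02 for the TECRLflox/flox library. Log2 ratios have 0.5 CPM added; single ratios do not, and their exact intervals (Clopper-Pearson) treat the sum of both counts as fixed. The floor of 3 counts is 0.181 CPM in the TECRLscko library and 0.152 CPM in the TECRLflox/flox library, and all 13 messages lay above the mean of 1 CPM. Nuclear copies were found with blastn 2.17.0 between GENCODE M21 transcripts. The trend correction used lowess with a span of 0.3 (statsmodels 0.14.6) on transcript length, then on GC content. The interval and trend steps were tested on simulated data. Nuclear gene lists, cell type markers and the rule for named genes (all members; the extremes of each nuclear list) were written down with earlier results of these data known, as were the members.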

Additional observations from a re-analysis of the deposited data

How the results depend on the processing

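No paired analysis was possible because there was a single library of each genotype, so that no replicate could be left out either. The values planned for rRNAs and tRNAs were not run, since these genes are not analysed here. The count of 10 members at least 1.5-fold higher was 2 at 2-fold and 3 after the length and GC correction, and between 9 and 11 under the other settings; the count lower was 0 under all of them. The median log2 ratio of 0.70 was 0.64 with total-count scaling, 0.64 with FPKM and 0.74 with median-centred FPKM. It was 0.75 with scaling by counts outside the mitochondrial genome and 0.48 after the correction. With nuclear copies added it was 0.69, and over members without a matching model it was 0.82. mt-Nd6 came to 0.70 after the correction. With copies added, the 13 messages took 24.4% of the TECRLscko and 18.2% of the TECRLflox/flox counts, and mt-Nd6 took 0.0508% in TECRLscko and 0.0334% in TECRLflox/flox of the mitochondrial counts. The shares of complexes I, III, IV and V were then 27.8%, 9.39%, 57.7% and 5.14% in TECRLscko, and 23.2%, 8.29%, 64.2% and 4.36% in TECRLflox/flox. Without mt-Co1 the share of all counts was 15.7% in TECRLscko and 10.5% in TECRLflox/flox, and the shares of complexes I, III, IV and V were 45.99%, 16.05%, 31.1% and 6.84% in TECRLscko, and 42.2%, 15.6%, 36.3% and 5.98% in TECRLflox/flox. Some settings were chosen after seeing the data. They were those for complex shares, for correcting the nuclear lists, for members without a matching model and for leaving out mt-Co1 or mt-Nd6. Of 147 values of single members under all settings run none changed sign, 77 stayed within the counting interval and 70 moved beyond it. Many of the 77 could not move: another filter leaves a member's value as it was. Another small value added to the CPM hardly changes members this abundant, and adding copies leaves members without a matching model unchanged. The 77 are therefore no measure of stability. Apart from the values after the correction, whose cause was not tested, the moves follow from the scaling, the counts added or the genes left out. Depth limits mt-Nd6, the message with the fewest counts.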
